A study of Homo sapiens with 12 samples.

Results

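The genes described here code for hnRNPs and for core proteins of the spliceosome. They are the symbols of the count table that begin with HNRNP, SNRP or U2AF, with SF3A or SF3B and a digit, or with PRPF and a digit. HNRNPD, symbols with a hyphen and symbols that end in P and digits were left out. The rule used no measured value and found 61 of 26334 symbols, of which 55 averaged 10 or more counts per library and were tested, as were 12032 genes in all. RNA was sequenced from A673 cells, an established Ewing sarcoma line labelled shA673-1c, after exposure to 5 µM actinomycin D for 0, 1, 2 or 4 h. Each time point had 3 biological replicates, and cells of all 4 time points were grown with blasticidin and zeocin. The 12 libraries thus come from 1 line, and none of them is a vehicle control at 1, 2 or 4 h. Actinomycin D blocks transcription, so the comparison over time asks how fast each mRNA is lost once it is no longer made.

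The hnRNPs coat nascent RNA in the nucleus and steer splicing, export and stability of mRNA. In the spliceosome, the Sm proteins form a ring on the U1, U2, U4 and U5 snRNAs, U2AF reads the end of the intron, the SF3a and SF3b complexes hold U2 snRNP on the branch point, and the PRPF proteins build and remodel the U4/U6.U5 tri-snRNP. In proliferating tumour cells these mRNAs are abundant, and many hnRNPs and splicing factors are known to control their own mRNA through alternative splicing.

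Total counts ranged from 9147018 to 11194705 per library. JUN and IER2, immediate early genes with short-lived mRNAs, checked the time labels. JUN stood at 41.2 ± 7.45 CPM (counts relative to the TMM-scaled library size, in the usual CPM unit; SD, n = 3) at 0 h and at 4.54 ± 0.883 CPM at 4 h, and IER2 at 65.1 ± 8.25 and 8.12 ± 1.38 CPM. Of 6 Ewing sarcoma markers, NKX2-2, NR0B1, STEAP1, PRKCB and LIPI were present at 7.08 to 128 CPM at 0 h, while CD99 had 0 counts in all 12 libraries. CD99 lies in a stretch shared by both sex chromosomes, and how reads that match more than 1 place were counted is not known, so its 0 is no measure of expression. The 8 markers of leukocytes, epithelium, endothelium and muscle averaged at most 3.33 counts per library, and CD3E, MYOG and MYOD1 had none.

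Most of these mRNAs kept or gained ground relative to the other mRNAs of the cell over 4 h, while a small group, among them PRPF4, HNRNPF and PRPF3, fell. With a straight line in time on the log2 scale (edgeR, TMM scaling, adjusted p below 0.05 over all tested genes), 9 of the 55 members fell, 29 rose and 17 did neither. That is 16.4% falling, where 32.1% of all tested genes fell, and 52.7% rising, where 30.7% of all tested genes rose. With the replicate number as a block, 11 members fell and 32 rose, beside 4182 and 4356 of all 12032 tested genes. The median slope of the members was 0.0497 log2 units per hour, beside 0.00929 over all tested genes. A slope above 0 is a rising share of the remaining RNA and does not mean that more of the mRNA was made. These libraries carry no measure of RNA per cell, so a falling pool of all mRNA cannot be told apart from a rising share of 1 mRNA. Fewer cells and less RNA per cell cannot be told apart either.

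The direction depends on the scaling. With library totals in place of TMM, 16 members fell and 16 rose, beside 39.1% and 18.7% of all tested genes. With GAPDH plus ACTB as the reference, 40 fell and 0 rose in edgeR, beside 64.2% and 0.931% of all tested genes, and 0 rose at an unadjusted p below 0.05. That scaling moved the median slope of all tested genes by -0.14, and the members' median to -0.088. The distance between the members' median and that of all tested genes was 0.0405 with TMM, 0.0404 with library totals and 0.0403 with GAPDH plus ACTB. A scaling moves the slopes of all genes by nearly the same amount, so this distance had to stay and is no separate evidence. It was 0.0342 with a minimum mean of 100 counts and 0.0465 without replicate 3. The slopes below are on the TMM scale and are read relative to the other mRNAs.

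**Figure D1:**
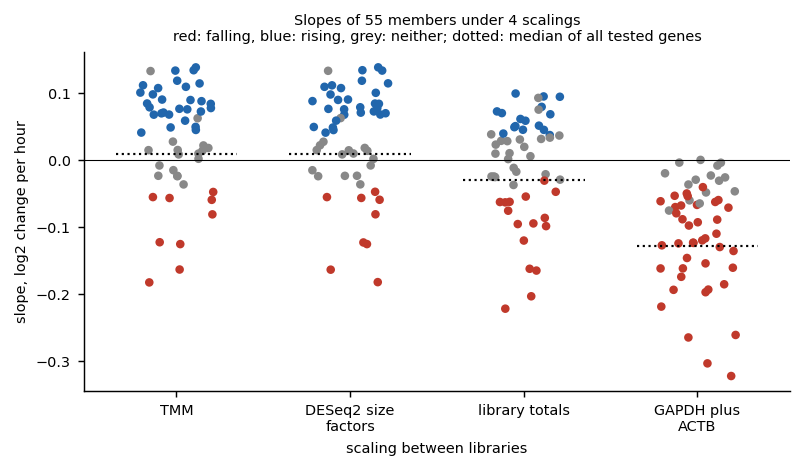
Slopes of the 55 tested members (vertical axis, log2 change per hour) under 4 scalings between libraries. Each point is 1 member, red where it fell, blue where it rose and grey where neither, and the dotted lines mark the median of all tested genes. The same cloud slides down from left to right, from 9 falling and 29 rising with TMM to 40 falling and 0 rising with GAPDH plus ACTB.

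Comparing the end points alone gave 8 lower members (31.6% of all tested genes were lower) and 28 higher (28.7% of all), and 12 and 33 with the replicate number as a block (36% and 36.8% of all). In 9 members all 3 libraries at 4 h lay below all 3 at 0 h, and in 28 all lay above, where the shares among all tested genes were 33.0% and 30.4%. A share of all counts is a scaling by library totals. On it the members together took up 1.64% ± 0.029 (SD, n = 3) at 0 h, 1.67% ± 0.014 at 1 h, 1.68% ± 0.027 at 2 h and 1.70% ± 0.030 at 4 h. In such a sum the abundant genes, such as HNRNPA2B1, weigh most. The libraries spanned 1.62% to 1.67% at 0 h and 1.68% to 1.74% at 4 h, so the group's share stood slightly higher at 4 h with no overlap. Within it, the Sm genes went from 0.109% to 0.123%, the SF3 genes from 0.229% to 0.231% and the PRPF genes from 0.214% to 0.208%. The hnRNP genes took up 0.973% to 1.02% at 0 h and 1.01% to 1.07% at 4 h, which overlap.

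**Figure D2:**
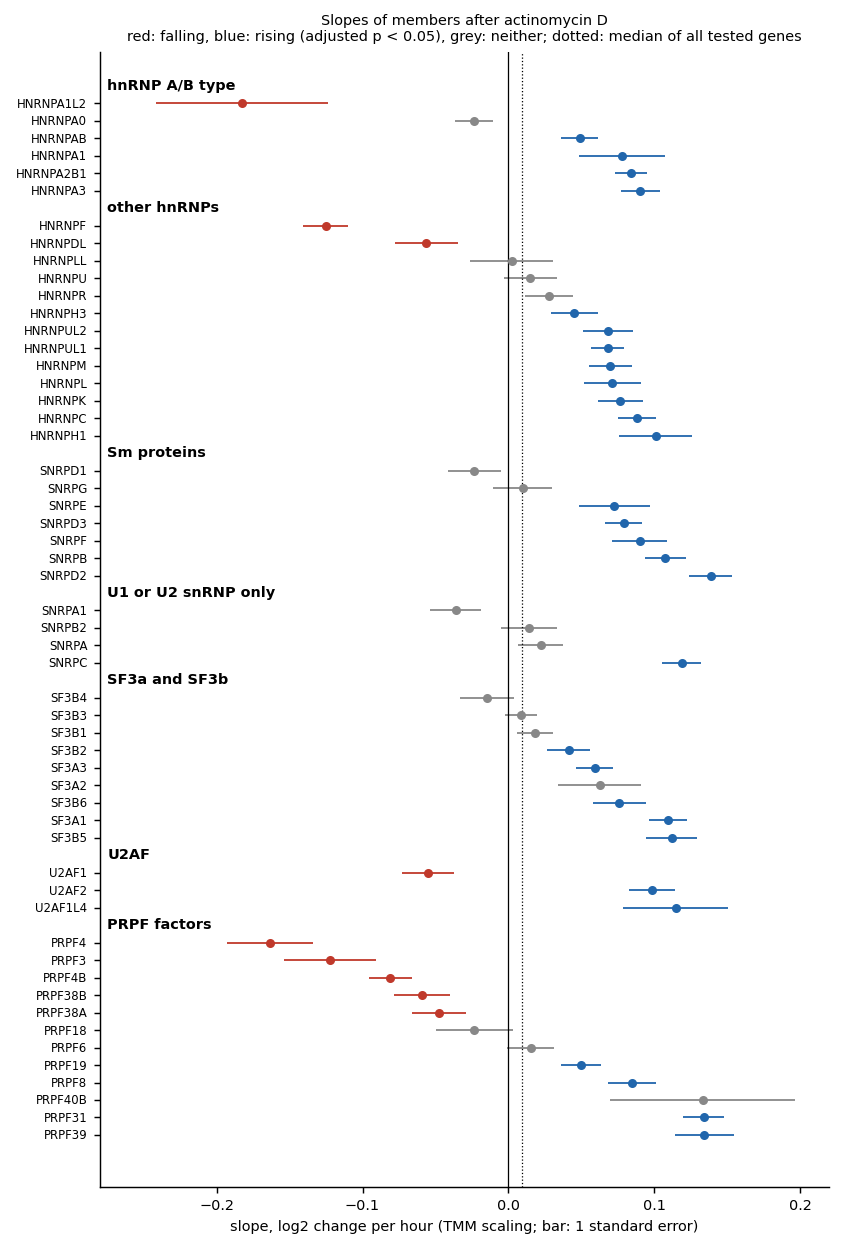
Slope of each tested member reported here (horizontal axis, log2 change per hour, TMM scaling) by role, with bars of 1 standard error. Red marks the 9 members that fell and blue the 29 that rose, the solid line is 0 and the dotted line the median of all tested genes. The Sm genes and SF3 genes lie mostly to the right, and 5 of the 9 falling members are PRPF genes.

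Beside 30.7% of all tested genes, 4 of the 6 hnRNP A/B genes tested rose. These genes code for the most abundant nuclear RNA-binding proteins. HNRNPA2B1, the most abundant of them, stood at 1957, 1962 and 1939.8 CPM in replicates 1, 2 and 3 at 0 h, at 2022, 1945 and 2004 at 1 h, at 2109, 2083 and 2133 at 2 h, and at 2367, 2481 and 2487 at 4 h. The 4 h libraries were all above every earlier library. Its level was 1.25-fold that at 0 h, and its slope 0.084 ± 0.011 (SE; edgeR adjusted p = 6.08e-06). Per kilobase of its canonical transcript, HNRNPA2B1 had the highest level of the group at 0 h, 538 CPM per kb, ahead of HNRNPK at 345, SNRPD2 at 314, HNRNPH1 at 313 and SNRPB at 309.

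HNRNPA1, a close paralog of HNRNPA2B1, gave only 45.8, 59.3 and 50.4 CPM at 0 h, 45.1, 52.8 and 49.0 at 1 h, 44.7, 60.4 and 52.8 at 2 h, and 57.9, 71.8 and 58.0 at 4 h. The replicates overlapped between times. Its slope was 0.078 ± 0.029 (edgeR adjusted p = 0.0299), and the call was lost without replicate 1 (adjusted p = 0.0618) and without replicate 3 (0.0725). Its 451 to 743 counts per library are uncertain, since the annotation lists 74 pseudogenes named for HNRNPA1 and how reads shared with them were counted is not known. The same doubt covers HNRNPA1L2, a near-identical copy with 16 to 54 counts. It stood at 4.42, 4.05 and 4.52 CPM at 0 h, at 3.25, 3.43 and 4.90 at 1 h, at 2.78, 4.05 and 3.48 at 2 h, and at 3.67, 2.42 and 1.79 at 4 h. It had the steepest fall, with a slope of -0.18 ± 0.059 (edgeR adjusted p = 0.0129), and although the 4 h libraries lay below those at 0 h, they were far apart. The call was lost without replicate 2 (adjusted p = 0.0611) and without replicate 3 (0.139). HNRNPA3 and HNRNPAB rose with slopes of 0.090 and 0.049, and HNRNPA0, an intronless gene, had a slope of -0.024 that did not pass the test but did with the replicate number as a block (edgeR adjusted p = 0.0221).

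Among the 13 other hnRNP genes tested, 8 rose, 2 fell and 3 did neither, beside 30.7% rising and 32.1% falling of all tested genes. HNRNPF and HNRNPH1 code for related proteins that bind G-rich runs beside exons, and their mRNAs moved apart. HNRNPF stood at 350.4, 372 and 369.6 CPM at 0 h, at 355, 353 and 358 at 1 h, at 332, 324 and 336 at 2 h, and at 279, 260.1 and 242 at 4 h. Its libraries at 2 h and at 4 h lay below all of those at 0 h. It fell to 0.715 of its level at 0 h, with a slope of -0.13 ± 0.015 (edgeR adjusted p = 2.85e-06). HNRNPH1 stood at 700.2, 789.5 and 617 CPM at 0 h, at 793, 863 and 702 at 1 h, at 777, 901 and 708 at 2 h, and at 928, 1054 and 849.5 at 4 h. Replicate 2 was the highest and replicate 3 the lowest at each time, and the 4 h libraries lay above all of those at 0 h. Its slope was 0.10 ± 0.025 (edgeR adjusted p = 0.00223).

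The ratio of HNRNPH1 to HNRNPF counts does not depend on how libraries are scaled to each other. It was 2.00, 2.12 and 1.67 in replicates 1, 2 and 3 at 0 h, 2.23, 2.45 and 1.96 at 1 h, 2.34, 2.78 and 2.11 at 2 h, and 3.33, 4.05 and 3.51 at 4 h. It was higher at each later time in each replicate. The log2 ratio rose by 0.23 ± 0.033 (SE) per hour, with 0.18, 0.23 and 0.27 in the single replicates. In an exact two-sided permutation test over 369600 arrangements of the time labels, p was 0.000119, or 0.00107 adjusted over the 9 pairs of related genes compared. A falling HNRNPF relative to HNRNPH1 thus holds under any of the scalings, while the rise of HNRNPH1 itself turns to a slope of -0.036 with GAPDH plus ACTB.

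HNRNPU, which binds chromatin-associated RNA and was the most abundant of these 13, stood at 1266, 1296 and 1144 CPM at 0 h, at 1290.0, 1276 and 1143 at 1 h, at 1326, 1366 and 1165 at 2 h, and at 1329, 1357 and 1156 at 4 h. Replicate 3 was the lowest at every time, and the times overlapped. Its slope of 0.015 ± 0.018 did not pass the test (edgeR adjusted p = 0.491). Its relatives HNRNPUL1 and HNRNPUL2 rose, each with a slope of 0.068. The log2 ratio of HNRNPU to HNRNPUL1 changed by -0.054 ± 0.021 per hour and missed the threshold in the exact permutation test (adjusted p = 0.112), but passed it when time labels were exchanged only within a replicate number, the block (exact permutation, adjusted p = 0.00293). HNRNPDL, a paralog of HNRNPD, fell with a slope of -0.056 ± 0.022 (edgeR adjusted p = 0.0315), a call lost without replicate 3 (0.0638). The risers also held HNRNPC, HNRNPK, HNRNPL, HNRNPM and HNRNPH3, with slopes of 0.088, 0.077, 0.071, 0.070 and 0.045, the HNRNPH3 call being lost without replicate 1 (edgeR adjusted p = 0.111). HNRNPR had a slope of 0.028 and passed as a rise with the replicate block (edgeR adjusted p = 0.00653), and HNRNPLL had a slope of 0.0021.

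**Figure D3:**
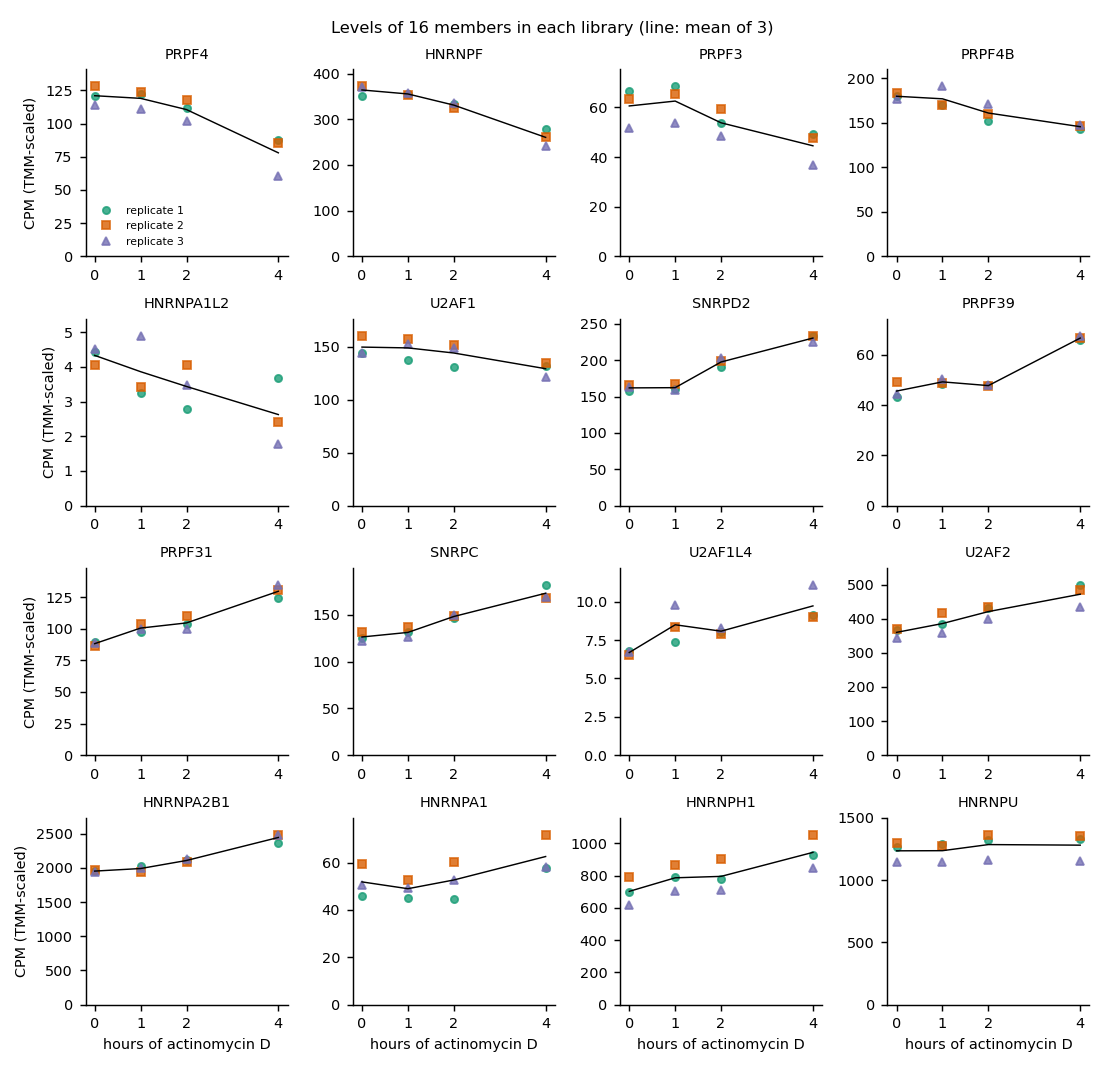
Levels of 16 members in each library (vertical axes, TMM-scaled CPM from 0, 1 scale per gene) against hours of actinomycin D. Symbols mark replicates 1 to 3 and the lines join the means of 3. PRPF4 and HNRNPF stay near their starting level for 1 h and lie lowest at 4 h, SNRPD2 and PRPF39 lie highest at 4 h, and HNRNPU overlaps between times.

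Of the 7 Sm ring genes tested, 5 rose, where 30.7% of all tested genes did. None fell at an adjusted p, where 32.1% of all did, or at an unadjusted p. SNRPD2, which codes for a ring subunit and had the steepest rise of all members, stood at 157, 166 and 163 CPM at 0 h, at 161, 167 and 159 at 1 h, at 191, 199 and 203 at 2 h, and at 233, 233 and 225 at 4 h. The 0 h and 1 h libraries overlapped, those at 2 h were higher, and those at 4 h higher again. The level at 4 h was 1.42-fold that at 0 h, and the slope 0.14 ± 0.015 (edgeR adjusted p = 6.16e-07). It was the only member whose slope stayed above 0 with GAPDH plus ACTB, at 0.00046, which is level with those references. SNRPB, the most abundant Sm gene, stood at 329.7, 340.5 and 333 CPM at 0 h, at 339, 371 and 329 at 1 h, at 374, 416 and 375 at 2 h, and at 459, 446 and 431 at 4 h. Its libraries at 2 h and 4 h lay above those at 0 h, with a slope of 0.11 ± 0.014 (edgeR adjusted p = 5.40e-06). SNRPF, SNRPD3 and SNRPE rose with slopes of 0.090, 0.079 and 0.073. The SNRPE call was lost without replicate 2 and without replicate 3. SNRPD1 (slope -0.023) and SNRPG (0.0098) did not pass the test, so the proteins of 1 ring had mRNAs with slopes from -0.023 to 0.14.

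Of the 4 genes for proteins found in U1 or U2 snRNP alone, SNRPC rose and SNRPA, SNRPB2 and SNRPA1 had slopes of 0.022, 0.014 and -0.036 that did not pass. SNRPA1, a U2 protein, passed as a fall with the replicate block (edgeR adjusted p = 0.0273), with a minimum mean of 100 counts (0.0383) and without replicate 2 (0.0229). SNRPC, a zinc finger protein of U1 snRNP that helps it hold the donor splice site, stood at 125, 132 and 122 CPM at 0 h, at 131, 136 and 126 at 1 h, at 146, 148 and 150.1 at 2 h, and at 182, 168 and 169 at 4 h. The 2 h libraries lay above all earlier ones and the 4 h libraries above those at 2 h. Its slope was 0.12 ± 0.013 (edgeR adjusted p = 1.12e-06).

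In SF3a and SF3b, the U2 snRNP complexes, 5 of 9 genes rose at an adjusted p, where 30.7% of all tested genes did. None fell at an adjusted p, where 32.1% of all did, or at an unadjusted p. The risers were SF3A1, SF3A3, SF3B2, SF3B5 and SF3B6. SF3B1, the scaffold at the branch point and the most abundant of the 9, stood at 556, 558 and 576.7 CPM at 0 h, at 560.0, 577 and 592 at 1 h, at 575, 607 and 622 at 2 h, and at 577.1, 619 and 581 at 4 h. The 4 h libraries lay above those at 0 h, by a narrow margin, while the other times overlapped. Its slope of 0.018 ± 0.013 did not pass the test (edgeR adjusted p = 0.218). SF3B5 and SF3B6, small subunits of SF3b, had slopes of 0.11 ± 0.018 and 0.076 ± 0.018 (edgeR adjusted p = 3.79e-05 and 0.00169), and SF3A1 0.11 ± 0.013 (1.62e-06). SF3A3 and SF3B2 rose with slopes of 0.059 and 0.041, the SF3B2 call being lost without replicate 1 and without replicate 2. SF3B3 (0.0086), SF3B4 (-0.015) and SF3A2 (0.063) did not pass, and SF3A2 rose with the replicate block (edgeR adjusted p = 0.0414). No test compared the subunits with each other.

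U2AF is a dimer of a large subunit, U2AF2, which reads the polypyrimidine tract, and a small subunit, U2AF1, which reads the AG at the intron's end. Their mRNAs went opposite ways. U2AF2 stood at 367, 369 and 344 CPM at 0 h, at 383, 417 and 357 at 1 h, at 430.2, 434 and 398 at 2 h, and at 498, 484 and 433 at 4 h. Its libraries at 2 h and 4 h lay above those at 0 h, with a slope of 0.098 ± 0.016 (edgeR adjusted p = 4.69e-05). U2AF1 stood at 144, 160.4 and 145 CPM at 0 h, at 137, 157 and 152 at 1 h, at 131, 152 and 149 at 2 h, and at 132, 135 and 121 at 4 h. Those at 4 h lay below those at 0 h, while the times between overlapped. Its slope was -0.055 ± 0.018 (edgeR adjusted p = 0.0128), and the call was lost without replicate 2 (0.0573). The ratio of U2AF1 to U2AF2 counts was 0.393, 0.435 and 0.420 at 0 h, 0.358, 0.377 and 0.427 at 1 h, 0.305, 0.351 and 0.374 at 2 h, and 0.265, 0.279 and 0.280 at 4 h. All libraries at 4 h lay below all others. This ratio was chosen after the values of both genes were seen and carries no test. U2AF1L4, a paralog of the small subunit at low level, stood at 6.78, 6.55 and 6.74 CPM at 0 h, at 7.37, 8.34 and 9.79 at 1 h, at 8.04, 7.89 and 8.31 at 2 h, and at 9.11, 8.99 and 11.1 at 4 h. It rose with a slope of 0.11 ± 0.036 (edgeR adjusted p = 0.0106), a call lost without replicate 1 (0.0558) and without replicate 3 (0.0509).

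**Figure D4:**
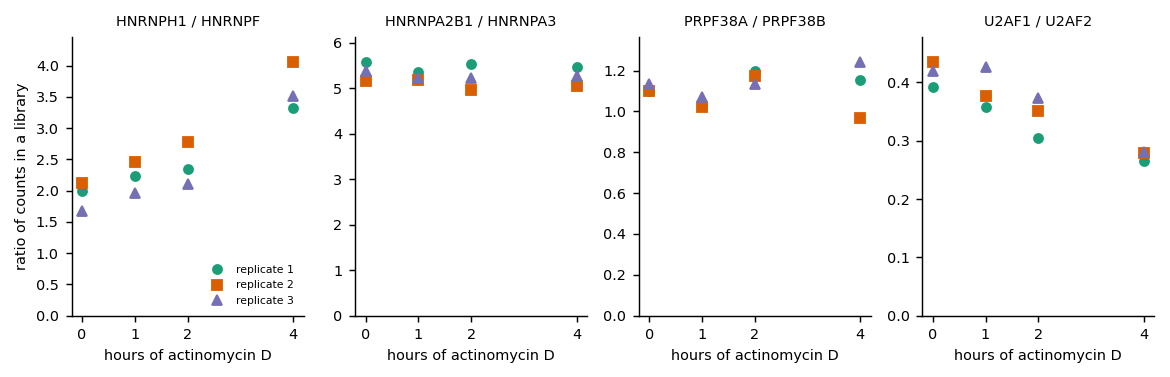
Ratio of the counts of 2 genes within each library (vertical axes, from 0) against hours of actinomycin D, for 4 pairs, with symbols for replicates 1 to 3. HNRNPH1 to HNRNPF rises from 1.67 to 2.12 at 0 h to 3.33 to 4.05 at 4 h, U2AF1 to U2AF2 falls to between 0.265 and 0.280, and the other 2 pairs overlap between 0 h and 4 h.

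Of the 13 PRPF genes, 5 fell, 4 rose and 4 did neither. These shares, 38.5% falling and 30.8% rising, lie near the 32.1% and 30.7% of all tested genes. PRPF4, which with PRPF3 forms the U4/U6 snRNP core, stood at 121, 128 and 114 CPM at 0 h, at 122, 124 and 111 at 1 h, at 112, 118 and 102 at 2 h, and at 87.8, 85.4 and 60.7 at 4 h. The first 3 times overlapped and the 4 h libraries lay below all of them, with replicate 3 lowest. It fell to 0.645 of its level at 0 h, with a slope of -0.16 ± 0.029 (edgeR adjusted p = 0.000142). PRPF3 stood at 66.5, 63.4 and 51.9 CPM at 0 h, at 68.5, 65.4 and 53.8 at 1 h, at 53.9, 59.2 and 48.3 at 2 h, and at 49.3, 47.7 and 36.6 at 4 h. Again replicate 3 was lowest at each time, and those at 4 h lay below those at 0 h. Its slope was -0.12 ± 0.032 (edgeR adjusted p = 0.00288).

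PRPF31, another protein of the same U4/U6 particle, went the other way. It stood at 89.8, 86.3 and 88.4 CPM at 0 h, at 97.4, 104 and 100.002 at 1 h, at 104, 109.6 and 99.96 at 2 h, and at 124, 130.4 and 134 at 4 h. Every library after 0 h lay above all of those at 0 h. The slope was 0.13 ± 0.014 (edgeR adjusted p = 4.85e-07), and 4 h stood at 1.47-fold 0 h. The mean ratio of PRPF4 to PRPF31 counts was 1.37 ± 0.0990 (SD, n = 3) at 0 h and 0.605 ± 0.136 at 4 h, and that of PRPF3 to PRPF31 0.687 ± 0.0868 and 0.345 ± 0.0654. Both ratios were chosen after the values were seen and carry no test.

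PRPF4B, a kinase that phosphorylates tri-snRNP proteins, stood at 179.6, 183 and 176 CPM at 0 h, at 169.5, 169.8 and 191 at 1 h, at 152, 159 and 171 at 2 h, and at 143, 146 and 147 at 4 h. It was lower at 2 h and 4 h than at 0 h in every library, with a slope of -0.081 ± 0.015 (edgeR adjusted p = 0.000153). PRPF38B and PRPF38A, related factors that join before activation of the spliceosome, fell with slopes of -0.059 ± 0.019 and -0.047 ± 0.018 (edgeR adjusted p = 0.0124 and 0.0336). The PRPF38B call was lost without replicate 3 (0.0530) and the PRPF38A call without replicate 1 and without replicate 2. PRPF39, related to a yeast U1 snRNP protein, stood at 43.4, 49.0 and 44.4 CPM at 0 h, at 48.5, 48.9 and 50.3 at 1 h, at 47.9, 47.4 and 48.0 at 2 h, and at 65.9, 66.5 and 67.6 at 4 h. The 0 h libraries overlapped those at 1 h and at 2 h, and those at 2 h lay slightly below those at 1 h. The 4 h libraries stood apart, at 1.46-fold 0 h, with a slope of 0.13 ± 0.020 (edgeR adjusted p = 2.36e-05). PRPF8, the large U5 protein at the catalytic centre and the most abundant of the 13, stood at 799.6, 691 and 708 CPM at 0 h, at 787, 758 and 717 at 1 h, at 894, 848 and 841 at 2 h, and at 979, 903 and 858 at 4 h. Its libraries at 2 h and 4 h lay above those at 0 h, with a slope of 0.085 ± 0.017 (edgeR adjusted p = 0.000311). PRPF19, a ubiquitin ligase of the active spliceosome, rose with a slope of 0.050. PRPF18, PRPF6 and PRPF40B had slopes of -0.023, 0.015 and 0.13 that did not pass, and PRPF40B, with only 35 to 88 counts, rose with the replicate block (edgeR adjusted p = 0.0167).

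Relative to the other mRNAs, the falls were slow. An apparent half-life on the TMM scale is 1 divided by the size of the slope. It came to 5.48 h for HNRNPA1L2, 6.13 h for PRPF4, 7.99 h for HNRNPF, 8.17 h for PRPF3 and 12.4 h for PRPF4B. For PRPF38B, HNRNPDL, U2AF1 and PRPF38A it came to 16.9 to 21.1 h. With GAPDH plus ACTB as the reference the same 9 ran from 3.10 h to 5.40 h. The values thus depend on the scaling, and without a measure of RNA per cell neither set gives the true half-lives. Most of these apparent half-lives exceed the 4 h that were observed and are extrapolated from the line.

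Without the replicate block, few genes of any kind passed the test in the first hour, so having no calls does not set the members apart. Between 0 h and 1 h no member passed the test in edgeR (0 lower and 0 higher, beside 2.24% and 0.349% of all tested genes), with 0 lower and 5 higher at an unadjusted p below 0.05 and 0 lower and 1 higher by DESeq2 (2.39% and 0.615% of all). With the replicate number as a block, 0 were lower and 6 higher at 1 h, HNRNPH1, HNRNPUL1, PRPF31, SF3A1, SF3A2 and U2AF2, beside 10.5% and 6.18% of all tested genes. Between 1 h and 2 h, 1 member was lower (12.5% of all tested genes) and 6 were higher (3.76%), and with the block 5 and 16 (20.7% and 17% of all). PRPF38B was the lower one, with a log2 change of -0.23 ± 0.065, and SNRPD2 had the largest rise, 0.28 ± 0.050 (edgeR adjusted p = 0.0258 and 0.00126). Leaving out any 1 replicate left 1 higher member in this step. Between 2 h and 4 h, 2 were lower (18.3% of all) and 10 higher (12%), and with the block 7 and 25 (25.3% and 25.3% of all). PRPF4 and HNRNPF were the lower pair, with log2 changes of -0.50 ± 0.11 and -0.35 ± 0.056 (edgeR adjusted p = 0.00412 and 0.000437), and PRPF39 had the largest rise, 0.48 ± 0.062 (6.85e-05). SNRPC, SNRPD2 and HNRNPC were higher in both of the later steps, which share the 2 h libraries. The genes of these steps were named after their values were seen.

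A test of the rate over the first hour against the rate from 1 h to 4 h called no member in edgeR (0 and 0, beside 0.0416% and 0.133% of all tested genes). At an unadjusted p below 0.05 it gave 2 and 1, and DESeq2 gave 0 and 0 (0.166% and 0.781% of all). The rates are signed, so a faster loss is a lower rate. With the replicate block, HNRNPC, HNRNPK and SNRPD2 had the lower rate in the first hour (differences of -0.14, -0.11 and -0.17 log2 units per hour). PRPF3 and SF3A2 had the higher (0.21 and 0.33). For PRPF3 this means a later loss: without the block its log2 change was 0.047 from 0 h to 1 h and -0.442 from 0 h to 4 h. These 3 and 2 members stand beside 5.39% and 7.47% of all tested genes called in that fit, so their number is near or below the background.

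For 6 other pairs of related genes the change in ratio was within about its standard error. Per hour, the log2 ratio of HNRNPA2B1 to HNRNPA3 changed by -0.0059 ± 0.010 (SE), that of HNRNPA1 to HNRNPA2B1 by -0.0070 ± 0.033, of HNRNPA1 to HNRNPA3 by -0.013 ± 0.025, of HNRNPUL1 to HNRNPUL2 by 0.0016 ± 0.021, of SNRPA to SNRPB2 by 0.0086 ± 0.031 and of PRPF38A to PRPF38B by 0.011 ± 0.021. The adjusted p-values of these 6 lay between 0.921 and 0.941 in the exact permutation test, which does not show that the genes decay alike. The HNRNPA2B1 to HNRNPA3 ratio was the tightest, from 4.97 to 5.57 over the 12 libraries.

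The steps that pull an mRNA into decay often act through its 3′ UTR, where AU-rich elements and Pumilio sites are known to bind proteins that speed deadenylation. In the canonical transcripts of GENCODE 44, the AU-rich core TATTTAT, which contains the shorter ATTTA, was found on the transcript strand of 11 of the 55 members (20.0%), where 37.6% of 10819 tested genes with a 3′ UTR held it. It was present in 2 of the 9 falling members, 3 of the 29 rising and 6 of the 17 others. The ATTTA pentamer was found in 33 members (60.0%, and 75.1% of all), and the Pumilio core TGTANATA in 18 (32.7%, and 31.7% of all). These UTRs differ in length, with a median of 1019 nt in the members and 1417 nt over all tested genes. The steepest fallers PRPF4, HNRNPF, PRPF3 and HNRNPA1L2 had no TATTTAT.

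The sites of the 2 falling members, PRPF4B and PRPF38B, are shown with those of the 3 rising ones, HNRNPC, HNRNPA2B1 and HNRNPA1. The HNRNPA1 call and counts are uncertain, as given above. Sites of the 6 members with the core that did neither are not shown. Whether the core bears on the slopes was not tested. Each is the heptamer in capitals with 9 bases on either side, from 5′ to 3′ on the transcript strand, in 3′ UTR exons on GRCh38. The count table itself has no coordinates. The PRPF4B sites lie at chr6:4062849-4062873, chr6:4064270-4064294 and chr6:4064878-4064902 on the plus strand.
PRPF4B site 1: tcccaccatTATTTATttcggtgat
PRPF4B site 2: aaaatgaaaTATTTATgtactgttt
PRPF4B site 3: tactctaatTATTTATggtaccatt
The PRPF38B site is at chr1:108701221-108701245 on the plus strand.
PRPF38B: tttttagcaTATTTATattgtggaa
The HNRNPC sites are at chr14:21210106-21210130, chr14:21209651-21209675 and chr14:21209208-21209232 on the minus strand.
HNRNPC site 1: tttaattacTATTTATagccccagt
HNRNPC site 2: ctcatgtctTATTTATgaggatttt
HNRNPC site 3: atggcatagTATTTATatgtaacct
HNRNPA2B1 has 1 site at chr7:26190850-26190874 on the minus strand, and HNRNPA1 1 at chr12:54286490-54286514 on the plus strand.
HNRNPA2B1: catttgttgTATTTATggttgtaac
HNRNPA1: ttgccctttTATTTATcttcctttg
PRPF4B, with 3 copies, had a slope of -0.081, and HNRNPC, also with 3, had 0.088. HNRNPR, with 5, and SNRPD1, with 3, had slopes of 0.028 and -0.023 that did not pass without the replicate block. A match describes letters and does not show that a protein binds there.

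Other features the rule did not use differed in size between the directions, given here without a test. The 29 rising members had a median 3′ UTR of 648 nt and a GC content of 50.7% in the transcript, the 9 falling 1245 nt and 46.0%, and the 17 others 1559 nt and 41.0%. Across the 55 members, Spearman's rho of slope with 3′ UTR length was -0.22 and with GC content 0.28. Over all tested genes with a 3′ UTR it was -0.27 and 0.27 (n = 10819). These points share the same 12 libraries. The members were also more abundant, with a median of 160 CPM at 0 h beside 32.0 over all tested genes.

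Other genes of the machinery were counted in lists that hold no member. Of 51 further spliceosome genes, 19 fell and 16 rose, with a median slope of -0.0055. These shares, 37.3% and 31.4%, lie near the 32.1% and 30.7% of all tested genes. The falls were steeper than those of any member in CWC22 (slope -0.42), which ties splicing to the exon junction complex, in SNRNP35 (-0.37) of the U11/U12 particle, in SNW1 (-0.25), in LSM8 (-0.23) and in RBM22 (-0.19). Within the Lsm ring on U6, LSM7 (0.15), LSM4 (0.14), LSM3 (0.073) and LSM5 (0.067) rose. LSM8 and LSM6 (-0.070) fell, and LSM2 (-0.029) did not pass. SNRNP200 (0.098) and EFTUD2 (0.085), which sit with PRPF8 in U5 snRNP, rose as PRPF8 did. SNRNP40 (-0.049), also a U5 gene, fell, and DDX23 (-0.0055) did not pass, so the U5 genes did not all move together. The cyclophilin PPIH (0.086), which binds PRPF4, rose where PRPF4 fell. Of 12 SRSF genes, which code for SR proteins, 3 fell and 2 rose (25% and 16.7%), with a median of -0.041. Of 8 hnRNP genes with other names, PCBP1 fell (-0.054) and PTBP2, PCBP2 and RALY rose (0.082, 0.090 and 0.14). No test compared these lists with the members.

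The 6 members that did not pass the filter were HNRNPCL1, HNRNPCL3, HNRNPCL4 and SNRPN, with 0 counts in every library, HNRNPCL2, with 0 to 5 counts, and HNRNPH2, with 0 to 3. The HNRNPCL genes are near-identical copies of each other. SNRPN shares its transcripts with SNURF and HNRNPH2 overlaps the readthrough RPL36A-HNRNPH2, and both of those symbols also had 0 counts. The part of such overlaps in the low counts was not tested, so these values are no measure of expression.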

How the data were processed

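Poly(A) RNA of the 12 libraries was sequenced with a stranded kit, and the values deposited are unnormalized read counts for each gene symbol. The submitters' notes name FastQC, STAR and the build hg19. The counting program, its annotation and its use of strand are not given in the sources used here. Samples were grouped by their time labels and columns matched by title, with 0 columns left unmatched. Genes averaging 10 or more counts per library were fitted with edgeR 4.0.16 in R 4.3.3 (TMM, glmQLFit and glmQLFTest, time as a number or as 4 groups, Benjamini-Hochberg over 12032 genes). Standard errors came from the F statistic. Pairs of genes were compared by the log2 ratio of count plus 0.5 within a library. Alternatives were DESeq2 1.42.0, other scalings and filters, a replicate block and each replicate left out. The code was tested on simulated data.

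Replicates of a time differed by more than sampling noise (chi-square per degree of freedom 3.20 to 8.66 in 12 pairs), and the biological coefficient of variation was 0.0858. Depth was 9147018 to 11194705 counts, so members under 100 counts are the least certain. The replicate numbers of the labels pair the samples, and the main fits and main permutation test leave this pairing out. Deviations from the time means correlated at 0.283 to 0.597 in 18 pairs of libraries with the same number. In 36 pairs with different numbers the values were -0.393 to 0.0779. Deviations at a time cancel out, so these are pushed below the others by construction and are no separate evidence. Members and gene lists were chosen with earlier results of these data known. Values in every library are given for the 5 steepest falls and rises past the threshold, the most abundant gene of each role, HNRNPA2B1, HNRNPA1 and pairs past the threshold, and U2AF1 was added after its value was seen. Sequences were read from GENCODE 44 on GRCh38. 1 tested member and its pair are counted in the totals but not reported here.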

Additional observations from a re-analysis of the deposited data

How the results depend on the processing

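The calls depended mainly on the scaling. With library totals, 16 members fell and 16 rose in slope, 14 were lower and 17 higher at 4 h than at 0 h, 1 was higher at 2 h than at 1 h, and 6 were lower and 3 higher at 4 h than at 2 h. With GAPDH plus ACTB these counts were 40 and 0 for the slope, 39 and 0 for 4 h against 0 h, 3 and 0 for 2 h against 1 h, and 26 and 0 for 4 h against 2 h. With DESeq2's size factors or its Wald test, all 55 slopes kept their direction and their side of the threshold. The slopes of 9 members turned below 0 with library totals: HNRNPLL -0.037, HNRNPR -0.011, HNRNPU -0.024, PRPF6 -0.024, SF3B1 -0.021, SF3B3 -0.030, SNRPA -0.017, SNRPB2 -0.025 and SNRPG -0.029. With GAPDH plus ACTB 39 turned: HNRNPA1 -0.060, HNRNPA2B1 -0.053, HNRNPA3 -0.046, HNRNPAB -0.089, HNRNPC -0.050, HNRNPH1 -0.036, HNRNPH3 -0.093, HNRNPK -0.061, HNRNPL -0.067, HNRNPLL -0.14, HNRNPM -0.068, HNRNPR -0.11, HNRNPU -0.12, HNRNPUL1 -0.070, HNRNPUL2 -0.071, PRPF19 -0.088, PRPF31 -0.0036, PRPF39 -0.0037, PRPF40B -0.0080, PRPF6 -0.12, PRPF8 -0.054, SF3A1 -0.029, SF3A2 -0.075, SF3A3 -0.079, SF3B1 -0.12, SF3B2 -0.098, SF3B3 -0.13, SF3B5 -0.026, SF3B6 -0.062, SNRPA -0.12, SNRPB -0.031, SNRPB2 -0.12, SNRPC -0.020, SNRPD3 -0.059, SNRPE -0.065, SNRPF -0.048, SNRPG -0.13, U2AF1L4 -0.023 and U2AF2 -0.040.

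With the replicate block, 6 members were higher at 1 h than at 0 h, 5 lower and 16 higher at 2 h than at 1 h, 7 lower and 25 higher at 4 h than at 2 h, and 3 and 2 differed between the early and the late rate. The block took 5 more slopes past the threshold and lost none, and it took the HNRNPU to HNRNPUL1 ratio (-0.054) past it (exact permutation within replicates, adjusted p = 0.00293). DESeq2 gave 1 higher member at 1 h, and so did testing all genes with a count, which gave 0 lower and 2 higher at 2 h. HNRNPLL, at a slope near 0, turned to -0.00019 with all genes with a count and to -0.0043 with a minimum mean of 100 counts. The cause was not tested.

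Leaving out 1 replicate gave 3 to 6 members lower at 4 h than at 0 h (3 without replicate 2), 0 to 1 lower and 1 higher at 2 h than at 1 h, and 1 to 2 lower and 5 to 8 higher at 4 h than at 2 h. Slopes that crossed 0 were those of HNRNPLL (-0.0044 to 0.0090), PRPF18 (-0.049 to 0.0085) and SNRPG (-0.0019 to 0.017). Ratios that crossed 0 were HNRNPA1 to HNRNPA2B1 (-0.020 to 0.0069), HNRNPA1 to HNRNPA3 (-0.028 to 0.00068), HNRNPUL1 to HNRNPUL2 (-0.012 to 0.012), SNRPA to SNRPB2 (-0.0024 to 0.014) and PRPF38A to PRPF38B (-0.0030 to 0.035). Without replicate 3, HNRNPU to HNRNPUL1 (-0.055 to -0.053 over the 3) passed the threshold, and HNRNPH1 to HNRNPF did so without any replicate.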
